A study of Bos taurus with 21 samples.

Results

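The comparison set 7 hypothalamus libraries from heifers that kept ovulating on a restricted diet against 7 from well-fed, ovulating heifers. It thus compared diets among animals that all ovulated. The 14 libraries were chosen by their sample titles, 14 of the 21 in the series. The restricted ovulatory (RO) heifers received 0.4 Mn and the controls 1.2 Mn (the feeding level in the unit the labels use), and both groups were sampled after 18 days of differential feeding. Assignment to RO was by outcome, since the remaining restricted heifers stopped ovulating (restricted anovulatory, RA). Diet and the selection of animals that kept ovulating therefore cannot be told apart here. Both groups were female cattle (Bos taurus). No allele or other agent is named for either, and the labels give neither breed nor age. Each library was made from polyA-selected mRNA of whole hypothalamic tissue, so a change in the share of a cell type and a change in RNA per cell cannot be told apart. The labelled tissue was not checked against marker genes, because the identifiers in the count tables could not be paired with gene names.

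The hypothalamus joins energy balance to reproduction. Neurons of its arcuate nucleus respond to leptin, insulin and ghrelin and set appetite, and other neurons release gonadotropin-releasing hormone, whose pulses drive luteinising hormone and ovulation. In undernourished ruminants those pulses slow, and animals differ in whether they go on ovulating.

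Depth was close between groups. The total count per library ran from 3698427 to 4078108 in controls (median 3928710) and from 3379050 to 4166412 in RO (median 3965721), and the difference between groups was smaller than the scatter among libraries (exact permutation test, two-sided, over 3432 arrangements, p = 0.809, Benjamini-Hochberg adjusted p = 0.971 over 3 library measures). Between 16030 and 16246 genes were detected in each control library and between 16047 and 16243 in each RO library. The most abundant gene took between 0.141% and 0.185% of the counts of a library. Whether duplicate reads were removed before counting, which lowers the counts of abundant genes and can narrow their fold changes, is not stated and was not tested.

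Sequencing run, read from the date token in the name of each deposited table and lettered A to C in date order, was largely confounded with diet. Run A held 1 control (replicate 5) and 1 RO library (replicate 7). Run B held 1 control (replicate 1) and 6 RO libraries, and run C held 5 controls and 0 RO libraries. Control replicate 5 stood apart from the other 13 libraries, with a mean correlation of 0.928 with the other controls, against 0.957 to 0.968 for the other 6 controls, so the main counts and the library comparisons are given with and without it.

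No gene differed between RO and control heifers at an adjusted p of 0.05. Of 13218 genes tested with edgeR's quasi-likelihood test, 0 passed (0% of genes, smallest adjusted p 0.847) and 682 had an unadjusted p under 0.05, which is 5.16% of the genes where 5% would be 661. On the same genes DESeq2 passed 0 (700 below 0.05 before adjustment, smallest adjusted p 0.183), as did limma-voom (645 below 0.05, smallest adjusted p 0.915). The limma-voom fit gave each library a quality weight, unlike the edgeR fits. Of the 682 genes, 261 were higher in RO (1.97% of genes tested) and 421 lower (3.19%). The lower side therefore held 61.7% of them, a share that was 73.3% under upper-quartile scaling and 51.2% in limma-voom. Without control replicate 5, 0 of 13272 genes passed and 568 were below 0.05 before adjustment, 199 higher and 369 lower in RO. Of these, 383 were among the 682. Without control replicate 1, the only control of run B, 0 of 13274 genes passed (smallest edgeR adjusted p 0.307). In that fit 950 had an unadjusted p under 0.05, of which 639 were lower in RO. Without RO replicate 6, 166 genes in place of 261 were on the higher side. Adding run to the model left 0 of 13218 genes past the threshold and 627 below 0.05 before adjustment.

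Without run in the model, the libraries bounded most differences closely, and with run they did so for fewer genes. The median fitted difference between the groups was 0.096 on the log2 scale in either direction, with a median standard error of 0.13. The 95% interval of a typical gene reached 1.20-fold to either side of its estimate. For 10175 genes (77.0%) the whole interval lay within 1.5-fold of no difference, and for 12501 genes (94.6%) it lay within 2-fold. Without control replicate 5 the shares were 79.4% and 96.0%. With run as a covariate the median standard error was 0.20, the typical interval reached 1.34-fold, and 51.2% of intervals lay within 1.5-fold and 81.6% within 2-fold. In the runs that held both groups, the median standard error was 0.21 and the shares were 45.1% and 77.1%. In both of these fits the difference between the groups rested on control replicates 1 and 5 alone among the controls. The 5 controls of run C had no direct bearing on that difference. With run as a covariate they did enter the estimate of spread, and so the standard errors, intervals and p-values. Both fits therefore depend on control replicate 5, the library that stood apart.

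Precision followed abundance in the fit without run. In the tertile of genes with the highest mean level, with a median of 513 counts per gene and library, 96.7% of intervals lay within 1.5-fold, and an unadjusted p below 0.05 was found for 4.13% of genes. In the middle tertile, with a median of 174 counts, 87.3% lay within 1.5-fold and 5.36% of p-values were below 0.05. In the lowest tertile, with a median of 41 counts, 47.0% lay within 1.5-fold. There 5.99% of unadjusted p-values were below 0.05, of which 76 were higher and 188 lower in RO. For the other genes of that tertile a 1.5-fold difference could not be bounded at this depth.

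The 4 genes described next had the lowest p-values of their direction, 2 higher and 2 lower in RO. They were picked on these libraries, and none passed the test. With run as a covariate each had an edgeR adjusted p of at least 0.99. ENSBTAG00000022548 measured 66.2 to 142 CPM in controls (median 112) and 143 to 223 CPM in RO (median 171), where CPM is the read count scaled to library size with TMM factors (trimmed mean of M-values). Every RO library lay above every control, although the lowest RO value and the highest control value nearly touched. The fitted difference was 0.63 on the log2 scale, or 1.55-fold (SE 0.15, 95% interval 0.31 to 0.95, edgeR adjusted p = 0.847). Both libraries at the point of near contact came from run B, where the control measured 142 CPM and the 6 RO libraries 143 to 223. In run A the control measured 136 CPM and the RO library 161, and the 5 controls of run C spread from 66.2 to 136 CPM. With run as a covariate the log2 difference was 0.28 (SE 0.22). The 7 RA libraries, from heifers on the same restricted diet that stopped ovulating, measured 60.4 to 123 CPM (median 97.0), within or below the control range.

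ENSBTAG00000044427 had the larger fold change of the 2 higher genes. It measured 4.97 to 12.3 CPM in controls (median 10.3) and 10.1 to 33.1 CPM in RO (median 18.8). The groups overlapped, with 5 of 7 RO libraries above all controls. The fitted difference was 1.04 on the log2 scale, or 2.06-fold (SE 0.27, 95% interval 0.46 to 1.62, edgeR adjusted p = 0.847). The spread was wider in RO (SD 8.89 CPM, n = 7) than in controls (SD 2.48 CPM, n = 7). Its direction was not shared by run A, where the control measured 12.3 CPM and the RO library 10.1. In run B the control measured 11.2 CPM against 11.1 to 33.1 in RO. With run as a covariate the log2 difference was 0.47 (SE 0.45). The RA libraries measured 3.47 to 11.1 CPM.

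The 2 lower genes changed less with run in the fit. ENSBTAG00000007012 measured 106 to 165 CPM in controls (median 135) and 77.7 to 112 CPM in RO (median 95.6), and 6 of 7 RO libraries lay below all controls. The fitted difference was -0.46 on the log2 scale, or 1.37-fold lower (SE 0.10, 95% interval -0.68 to -0.24, edgeR adjusted p = 0.847). RO was lower within both shared runs, at 77.7 against 107 CPM in run A and at 93.5 to 112 against 135 CPM in run B. With run as a covariate the log2 difference was -0.45 (SE 0.14). The RA libraries measured 93.3 to 173 CPM, a range that held all controls and overlapped RO.

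ENSBTAG00000018548 combined a small difference with a small spread. It measured 85.0 to 103 CPM in controls (median 90.9) and 74.1 to 85.3 CPM in RO (median 77.8). RO replicate 4 was the only RO library within the control range. The fitted difference was -0.26 on the log2 scale, or 1.20-fold lower (SE 0.061, 95% interval -0.39 to -0.13, edgeR adjusted p = 0.847). In run A the RO library measured 74.2 CPM and the control 100.4, and in run B the 6 RO libraries measured 74.1 to 85.3 CPM and the control 88.9. With run as a covariate the log2 difference was -0.28 (SE 0.10). The RA libraries measured 76.1 to 97.9 CPM.

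**Figure D1:**
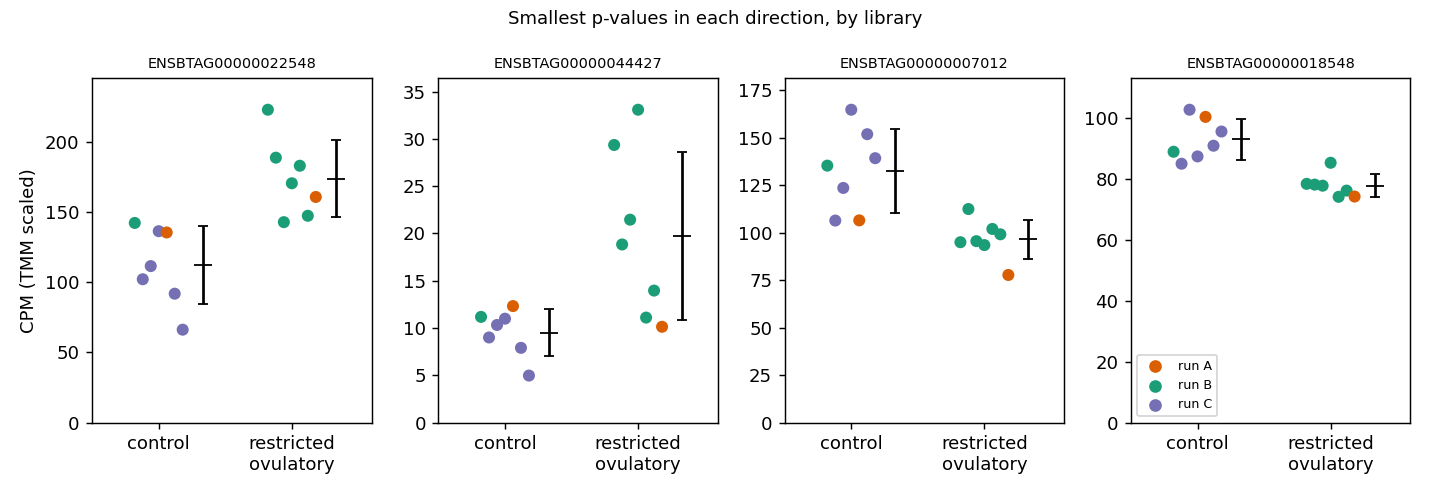
CPM (vertical axis, linear, starting at 0) of the 4 genes with the lowest p-values of their direction, by group, with 1 point per library coloured by run and bars for the mean ± SD (n = 7). For ENSBTAG00000022548 the groups meet at 142 and 143 CPM in run B, and for ENSBTAG00000044427 the RO library of run A, at 10.1 CPM, lies within the control range.

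Complete separation of the groups was rare. The 7 RO libraries lay above all 7 controls for 5 genes (0.0378% of genes tested) and below all 7 for 10 genes (0.0757%), together 15 genes (0.113%). Of the 4 genes described above, only ENSBTAG00000022548 was among them. Differences at these 15 genes were small, with a median size of 0.30 on the log2 scale and a range of 0.07 to 0.63. With run as a covariate 15 of 15 kept their sign, with a median of 0.29 in the original direction. The genes were chosen on the same libraries, so this describes them and tests nothing.

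Presence and absence did not mark the diet either. Of 22984 genes listed, 18731 had at least 1 count in the 14 libraries and 14240 had counts in all 14. No gene was detected in all 7 libraries of one group and in 0 of the other. Of the 18731 genes, 653 had counts in RO alone and 594 in controls alone, in at most 5 of 7 libraries in either case. These numbers include control replicate 5. The largest total of such a gene was 58 counts in RO and 454 in controls.

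Large fitted differences were almost all in one direction, and their size depended mostly on 1 library. The fitted difference exceeded 2-fold for 62 genes lower in RO (0.469% of genes tested) and for 2 higher (0.0151%), one of which was ENSBTAG00000044427. They were mostly of low abundance, and 1 of the 64 had a mean level above the median of all tested genes. Of the 62 genes, 57 had their highest value in control replicate 5, 3 in control replicate 7 and 2 in control replicate 2. Summed over the 62 genes, control replicate 5 measured 4596 CPM, against 361 to 802 in the other 6 controls (median 450), 255 to 755 in RO (median 335) and 269 to 926 in RA (median 411). The other controls and both restricted groups thus covered overlapping ranges, with control replicate 5 alone far above them. Without control replicate 5, 53 of the 62 genes were still lower in RO and 7 still differed by over 2-fold. The median log2 difference of the 62 went from -1.38 to -0.34. The number with an unadjusted edgeR p under 0.05 went from 42 to 9. In that fit 10 genes over all tested exceeded 2-fold on the lower side and 3 on the higher side, whereas leaving out any other library gave 66 to 94 lower and 0 to 10 higher. The 94 came without RO replicate 2.

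**Figure D2:**
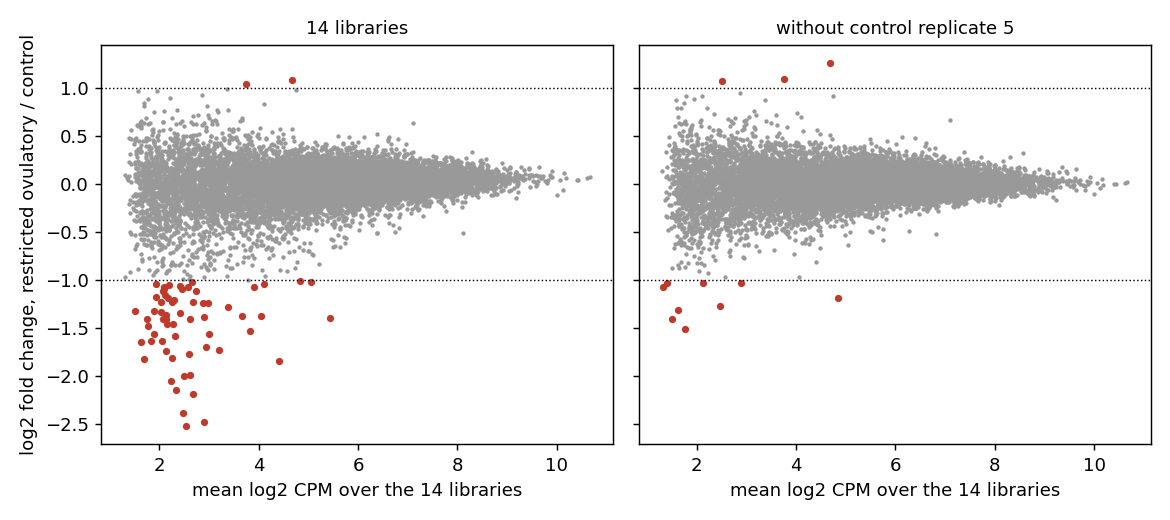
Fitted log2 fold change of RO over control (vertical axis) against mean log2 CPM (horizontal axis) for each tested gene, with all 14 libraries (left) and without control replicate 5 (right); red points exceed 2-fold, and dotted lines mark that bound. Of the 62 genes beyond 2-fold on the lower side at left, 7 are still beyond 2-fold at right.

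Control replicate 5 also stood apart gene by gene. It lay at least 1 log2 unit above each of the other 13 libraries for 241 genes and at least 1 below for 33. For the other libraries the first count ran from 0 to 15, the 15 being in RO replicate 1, and the second from 0 to 32, the 32 being in control replicate 4. The excess of control replicate 5 was thus on the higher side. ENSBTAG00000009128, picked out after its values were seen and too seldom detected to be tested, had 454 counts in control replicate 5, 0 in the other 13 libraries and 1 in the 7 RA libraries together. The other library of run A in the comparison, RO replicate 7, exceeded all others in this way for 1 gene. Tissue dissection, RNA quality and the state of the animal were not tested as sources of this library's position.

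The same library set the apparent spread of the controls. The median gene had a within-group SD of 0.23 log2 CPM in controls and 0.22 in RO, and 52.9% of genes varied more in controls. Without control replicate 5 the control value was 0.19, and 37.1% of genes varied more in controls. Leaving out any other control gave 0.22 to 0.24, and leaving out any RO library gave 0.21 to 0.23. The first principal component, with 25.3% of the variance, separated control replicate 5 at 56.7 from the other libraries at -23.4 to 21.2. On neither of the first 2 components did diet divide the libraries.

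**Figure D3:**
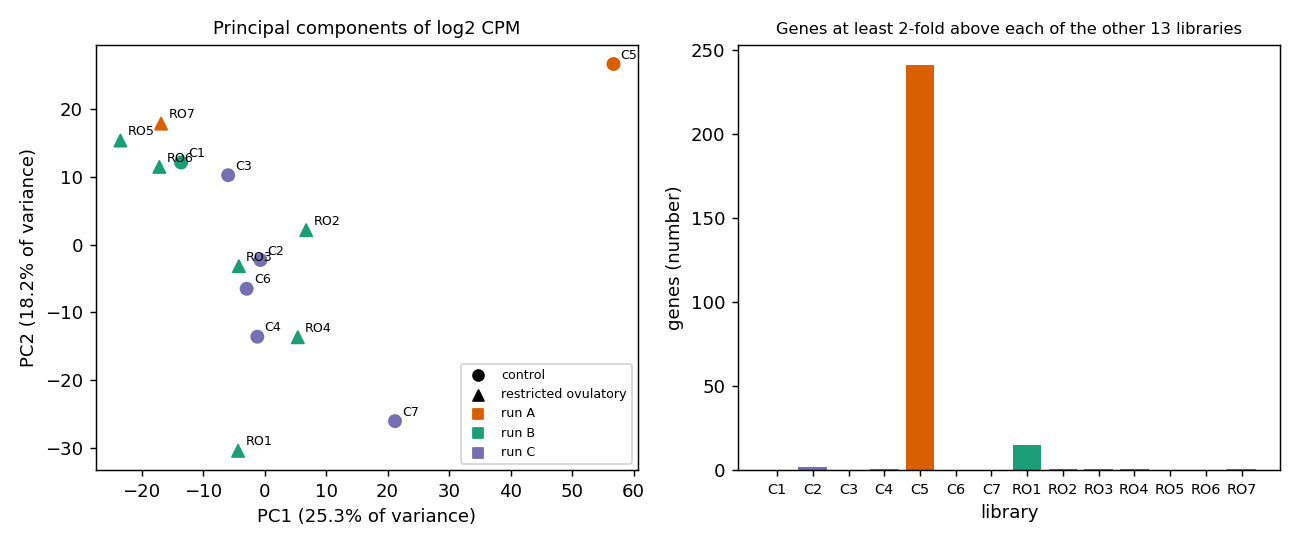
Left, the 14 libraries on principal components 1 and 2 of their log2 CPM, with shape for group and colour for run (C, control; RO, restricted ovulatory; number, replicate). Right, the number of genes in which each library lay at least 2-fold above each of the other 13, which was 241 in control replicate 5 and 0 to 15 elsewhere.

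It was then asked where the genes with low p-values placed a library that had not been used to find them. Each library was left out in turn, genes with an unadjusted edgeR p under 0.05 were taken from the other 13 libraries (510 to 942 genes), and the left-out library was scored by the share of those genes whose log2 CPM lay nearer the mean of the RO libraries than that of the controls. A left-out RO library lay nearer the RO mean for 36.8% to 70.7% of genes, and 4 of 7 did so for more than 50%. A left-out control lay nearer the RO mean for 31.6% to 73.2%. The shares of the groups overlapped over most of their range. Each library was scored on its own list, and leaving a library out can let in genes in which it went against the group difference. The longest list, 942 genes, gave control replicate 1 the lowest share nearer its own group, 26.8%. The shortest, 510 genes, gave control replicate 7 a share of 68.4%. The shares therefore describe the libraries and do not test the diet. With control replicate 5 kept out of the fits and means, the shares were 34.1% to 66.1% in RO and 34.9% to 68.9% in the other 6 controls.

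Control replicate 1 had the highest share of all 14 libraries. This control, the only one in run B with 6 of the 7 RO libraries, lay nearer the RO mean for 73.2% of 942 genes. In the 5 controls of run C the share was 31.6% to 57.7%, and in control replicate 5 of run A it was 41.0%. With control replicate 5 kept out, control replicate 1 still had the highest share, 68.9% of 736 genes. Its mean correlation with the RO libraries was then 0.974, against 0.971 with the other 5 controls, and 2 of those 5 also correlated better with RO than with their own group. On the RO side, replicates 1, 2, 3, 4 and 7 likewise correlated better with the controls than with their own group. RO replicates 5 and 6 did not. Diet and run were only partly separable, since the within-run differences rest on 1 control in run A and 1 in run B.

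The RA libraries, which had no part in the fit, shared the restricted diet with RO. On the 682 genes with an unadjusted p under 0.05 they lay nearer the RO mean for 19.8% to 59.2% of genes, and 1 of 7 exceeded 50%. The 2 RA libraries of run C, which held most controls, had 41.2% and 59.2%, the RA library of run A had 29.6%, and the 4 of run D, which held RA alone, had 19.8% to 40.6%. With control replicate 5 kept out, the RA shares were 21.2% to 47.3% of 566 genes, and 0 of 7 exceeded 50%. No RA library was in run B, which held 6 of the 7 RO libraries, so distance from the RO mean and distance from run B cannot be told apart here.

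**Figure D4:**
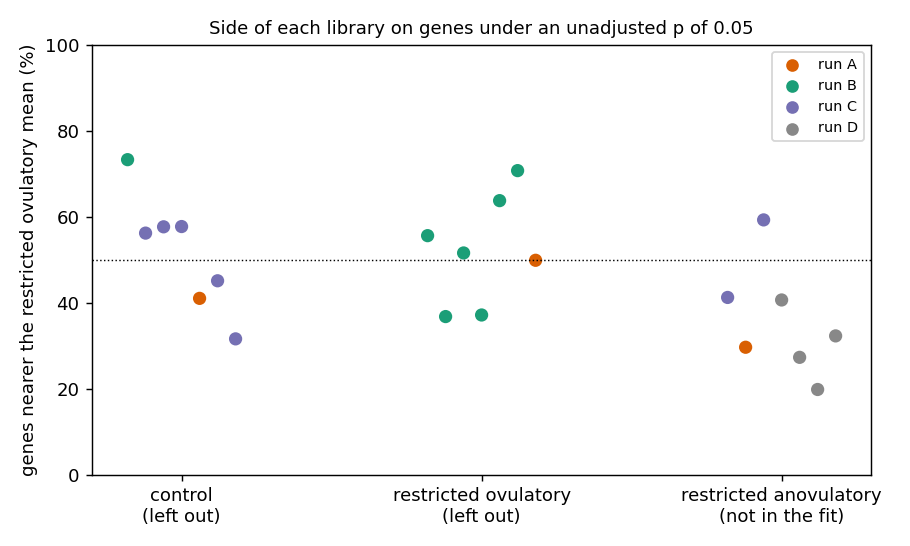
Share of genes (percent, vertical axis) in which each library lay nearer the RO mean than the control mean, for genes with an unadjusted p under 0.05, with 1 point per library coloured by run and a dotted line at 50%. Control replicate 1 of run B has the highest share, 73.2%, and 6 of 7 RA libraries lie below the line.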

How the data were processed

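The authors deposited 1 table of raw read counts per gene and library, without normalization. CASAVA 1.4, Bowtie, SAMtools and HTSeq appear in the submitters' processing notes. Their roles, the genome build, annotation, strand setting and duplicate handling are not given in the sources read. Groups came from the titles. Nothing says that replicates were separate animals, so p-values measure the spread between these libraries, which may be technical. No 2 libraries agreed within sampling noise (chi-square per degree of freedom at least 2.34 over 91 pairs).

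Genes were filtered on the 14 libraries with edgeR's filterByExpr (minimum count 10, total 15), leaving 13218 genes with 99.7% of counts. Counts were scaled by TMM, and the groups compared in edgeR 4.0.16 under R 4.3.3 (robust quasi-likelihood test, Benjamini-Hochberg adjustment, threshold 0.05). Standard errors are the log2 fold change over the square root of F. CPM and log2 CPM (prior count 2) were computed here. The test was checked on simulated counts with no run effect and no library set apart, so the check does not cover those features. Alternatives used DESeq2 1.42.0, limma 3.58.1 (limma-voom with quality weights per library), other scalings, filters and library sets.

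Of 22984 identifiers, 0 matched a symbol in the RefSeq gene table, so 34 lists of pathway and cell type genes were not tested. As the naming rule provides in that case, the 2 identifiers of lowest p-value higher in RO and the 2 lower in RO are named. The comparison, lists and tests were chosen with earlier results of these data known.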

Additional observations from a re-analysis of the deposited data

Results flagged for a closer look

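Over 16 sets of 7 values, 3 had an extreme library whose gap to the next exceeded the 95% limit of Dixon's test, where chance picks out about 1 in 20. In control replicate 5 the 10 most abundant genes took 1.12% of the counts, against 1.23% to 1.29% in the other controls, and its mean correlation with them was 0.928, against 0.957 to 0.968. RO replicate 4 measured 6.42 log2 CPM of ENSBTAG00000018548, against 6.22 to 6.30 in the other RO libraries.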

How the results depend on the processing

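The count of 0 genes past an adjusted p of 0.05 was the same under all 13 other settings run (RLE and upper-quartile scaling, no filter, a stricter filter that asks for 5 CPM in 7 or more libraries, DESeq2, limma-voom, all 21 libraries, 3 fits to runs, the replicate block and 2 choices of libraries added after seeing the data), with the threshold at 0.1, and in each of the 14 fits that left out 1 library. Genes with an unadjusted p under 0.05 ran from 353 of 13218 tested (replicate block) to 987 of 18731 tested (no filter) over the settings. Leaving out 1 library, they ran from 511 of 13269 (without control replicate 7) to 950 of 13274 (without control replicate 1). Against the 5 controls of run C alone 741 of 13321 genes had an unadjusted p under 0.05, and without the run A libraries 597 of 13220, both chosen after seeing the data. The 4 named genes kept their sign in 27 of 27 fits. They were picked on these libraries, which most of the fits shared, so this describes them and tests nothing. No pairing of samples by replicate number was seen. Deviations from group means correlated by -0.11 on average over 7 same-numbered pairs (-0.32 to 0.18), and 1 of 14 libraries correlated best with its own number. The difference in mean total counts, -30157 per library, ranged from -76804 to 54423 leaving out 1 library. It was 54423 without RO replicate 1 and 7783 without RO replicate 4, since RO then lost its libraries of lowest depth.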
